A study of Mus musculus with 24 samples.

Results

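Loss of ATP citrate lyase (Acly) was set against loss of the pyruvate dehydrogenase subunit Pdha1 in mouse CD4 T cells activated through CD3 and CD28 for 24 h. The compared quantity is a difference of effects on the log2 scale: knockout minus wild type in the Acly cohort, less knockout minus wild type in the Pdha1 cohort. A value above 0 means that the knockout effect was higher in the Acly cohort, and a value below 0 that it was higher in the Pdha1 cohort. All 12 activated libraries of the 24 in the series were used, 3 in each of 4 groups. The groups were WT and CD4-Cre Acly fl/fl cells, and WT and Pdha1 fl/fl CD4CreERT2 cells. All were kept in RPMI with 15% serum and 2 mM glutamine. CD4-Cre deletes during T cell development, whereas CreERT2 needs an inducing drug, and the labels give no schedule for it. They give neither the ages of the mice nor whether WT cells carried a Cre, nor whether replicates were separate animals. Cohort, Cre and deleted gene therefore cannot be told apart in the difference.

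Pyruvate dehydrogenase converts pyruvate from glycolysis into acetyl-CoA inside mitochondria, and Pdha1, an X-linked gene, encodes the catalytic alpha subunit of its first component. Citrate made from that acetyl-CoA can leave the mitochondrion through the carrier Slc25a1, and Acly cleaves it in the cytosol back to acetyl-CoA, the building block of fatty acids and sterols and the donor for histone acetylation. T cells switch on glycolysis, mitochondrial and ribosome production and the cell cycle when they are activated. The comparison asks where loss of the earlier and of the later step of this route left different transcript levels.

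Before any gene is compared, the library labelled Pdha1 WT activated 3 needs to be set apart. Its log2 values correlated with the mean of its cohort's resting libraries at r = 0.943 and with the mean of the cohort's other activated libraries at r = 0.696, as a description across 18244 genes that are not independent. Pdha1 WT 1 lay at 0.416 with resting libraries and at 0.664 with activated ones, the latter the lowest of the 12. Pdha1 WT 2 lay at 0.742 and 0.928, and Pdha1 KO at 0.787 to 0.892 and 0.924 to 0.946. The 6 Acly libraries lay at 0.382 to 0.501 and 0.942 to 0.957. Olfactory and vomeronasal receptor genes, 1685 genes not known to be used by T cells, summed to 30101 to 40962 RPM (reads scaled to 1000000 per library) in the activated Acly libraries. They summed to 26381, 72243 and 105375 RPM in Pdha1 WT 1, 2 and 3, and to 75403, 82360 and 89326 RPM in Pdha1 KO. The resting library labelled Pdha1 KO 3 (66286 RPM) also stood apart from the other 11 resting libraries (95330 to 109575 RPM). Its T cell activation list mean was 5.15, beside 2.09 to 2.75 in those 11 and 2.68 in the library labelled Pdha1 WT activated 3. Whether the labels of this pair were exchanged cannot be told from the sources used here, and all values are given as labelled. Recovered counts ran from 388902 (Pdha1 WT 1) to 1087675 per activated library, and 3 counts, the limit that a count of 0 allows, were worth 2.21 to 6.83 RPM. These limits cover counting error only. The 8 T cell markers, Cd4 and Cd3e among them, were above 0 in all 12 libraries and summed to 1240 to 1771 RPM in the Acly cohort, 942, 920 and 218 RPM in Pdha1 WT and 466 to 666 RPM in Pdha1 KO. In bulk RNA, fewer cells of a type and less RNA per cell cannot be told apart. Every comparison is therefore given with all 12 libraries and with 11, leaving out the library labelled Pdha1 WT activated 3. The 11 libraries still hold Pdha1 WT 1, which had the fewest counts and also stood apart from its cohort.

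**Figure D1:**
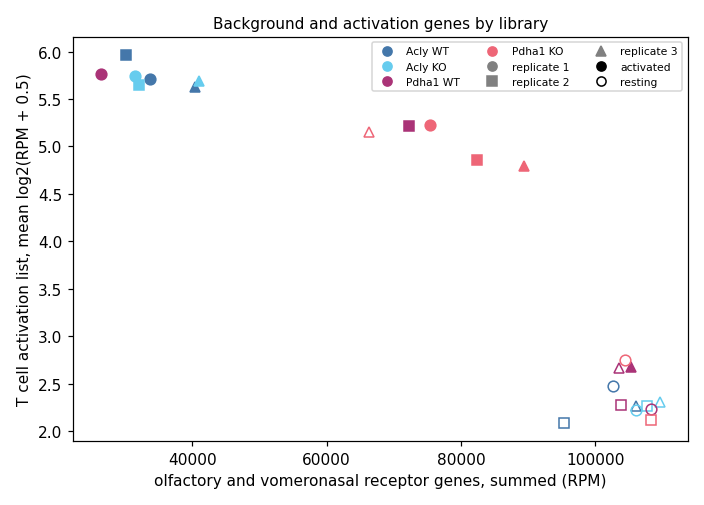
Olfactory and vomeronasal receptor genes, summed (x axis, RPM) against the mean log2(RPM + 0.5) of the T cell activation list (y axis), 1 point per library; filled points are activated, open points resting. The library labelled Pdha1 WT activated 3 (filled triangle, 2.68 on the y axis) lies among resting libraries, and Pdha1 WT 1 (5.77) among the activated Acly libraries.

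With 12 libraries, 1 of 28144 genes passed limma with Benjamini-Hochberg adjustment at 0.05 (0.00355%). With 11 libraries, 8 of 26808 genes passed (0.0298%), the former among them. For all 8 the difference was below 0. No gene passed in either set when resting libraries shared the estimate of the spread, or when limma was run without its trend and robust options. At an unadjusted p under 0.05, 162 genes had a difference above 0 (0.576%) and 623 below 0 (2.21%) with 12 libraries. With 11 libraries these were 1556 genes (5.8%) and 2220 genes (8.28%). The median difference over all genes tested was -0.33 in both fits, and 32.9% and 38.6% of genes lay above 0. Beside it stood a median Acly effect of -0.07 (-0.08 with 11 libraries) and a median Pdha1 effect of 0.26 (0.31). The median of -0.33 moved with the setting. With 12 libraries it was -0.30 with a filter of 10 RPM, -0.11 with edgeR and -0.03 with quantile normalization. With 11 libraries the same settings gave -0.12, -0.04 and 0.03, and leaving out Pdha1 WT 1 as well gave 0.01. Leaving out the library labelled Pdha1 WT activated 3 turned the sign of the difference for 5022 of 26808 genes (18.7%). The count of calls also rested on the test: edgeR's quasi-likelihood test on recovered counts called 297 genes above 0 (1.11%) and 45 below 0 (0.168%) with 11 libraries. DESeq2 called 483, 2 of the 8 among them (Fam129b and 9330159M07Rik), and gave the other 6 no adjusted p. The edgeR count was 2881 with Pdha1 WT 1 as the only Pdha1 control and 30 with Pdha1 WT 2 alone.

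The called genes shared a single shape: they were lower in Acly KO than in WT, and higher in Pdha1 KO than in WT. In all 8 genes every Pdha1 KO library lay above every Pdha1 WT library, the library labelled WT 3 included, and in 7 every Acly KO library lay below every Acly WT library. Over all 28144 genes, 3.99% had the former arrangement and 8.10% the latter. These arrangements come from the tested values themselves and are a description. The predicted and pseudogene names among the 8 lie outside the rule for naming genes and are given because so few genes were called.

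Trmt112-ps1 (ENSMUSG00000107261, chromosome 5, 91737705 to 91738079, minus strand), a processed pseudogene of the methyltransferase partner Trmt112, was the gene called with all 12 libraries. It measured 34.0, 28.5 and 44.3 RPM in Acly WT and 10.6, 9.71 and 7.49 RPM in Acly KO. In the Pdha1 cohort it measured 6.84, 7.73 and 6.43 RPM in WT and 51.3, 37.8 and 32.9 RPM in KO. Neither pair of groups overlapped, with Pdha1 WT 1 at its floor of 6.83 RPM. The difference was -4.31 ± 0.53 (SE) with limma adjusted p = 0.00775, and -4.26 ± 0.50 with adjusted p = 0.00013 with 11 libraries. It moved by little between Pdha1 controls, at -4.34, -4.18 and -4.42 against WT 1, 2 and 3 alone. The call was lost on leaving out Acly WT 1, Acly WT 3, Acly KO 3, Pdha1 KO 1 or Pdha1 KO 2. A pseudogene can take reads from its parent, so its values are uncertain. Trmt112 itself had another profile, with 249, 87.9 and 4.28 RPM in Pdha1 WT and 69.4, 63.8 and 50.6 RPM in Pdha1 KO.

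Fam129b (ENSMUSG00000026796, chromosome 2, 32876114 to 32925254), also known as Niban2, had the smallest p with 11 libraries. It measured 163, 92.8 and 75.6 RPM in Acly WT against 39.5, 18.6 and 41.9 RPM in Acly KO. In the Pdha1 cohort it measured 31.9, 61.3 and 62.5 RPM in WT against 306, 361 and 355 RPM in KO. The KO libraries were the lowest of the Acly cohort and the highest of the Pdha1 cohort. The Acly effect was -1.72 and the Pdha1 effect 2.76. The difference was -4.48 ± 0.68 (adjusted p = 0.0644, limma) with 12 libraries and -4.65 ± 0.51 (adjusted p = 7.78e-05) with 11.

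Kcnq1 (chromosome 7, 143106362 to 143427042, plus strand) encodes a voltage-gated potassium channel in an imprinted region. It measured 25.0, 26.1 and 10.6 RPM in Acly WT and 3.02, 3.53 and 6.42 RPM in Acly KO. In Pdha1 WT it measured 13.7, 4.83 and 1.07 RPM, and in Pdha1 KO 52.9, 62.9 and 58.7 RPM. The groups did not overlap within either cohort, though Pdha1 WT itself spread widely and WT 3 lay under its floor. The difference was -5.66 ± 0.89 (adjusted p = 0.0644, limma) with 12 libraries and -4.84 ± 0.64 (adjusted p = 0.000797) with 11. The antisense transcript Kcnq1ot1 overlaps the gene on the other strand. It measured 1249 to 1689 RPM in the Acly cohort, 906, 2817 and 4098 RPM in Pdha1 WT and 3056 to 3128 RPM in Pdha1 KO. Its order over Pdha1 WT libraries was the reverse of that of Kcnq1 and its difference with 12 libraries was -0.51 ± 0.93 (adjusted p = 1.00, limma). The kit marks strand, but whether the counting used it is not given in the sources used here.

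Arhgap26, a GTPase-activating protein, measured 87.6, 26.1 and 20.3 RPM in Acly WT and 7.56, 5.29 and 3.21 RPM in Acly KO. It measured 11.4, 9.67 and 13.9 RPM in Pdha1 WT and 58.1, 18.0 and 23.2 RPM in Pdha1 KO. Replicate 1 was the highest of Acly WT and of Pdha1 KO, and Acly KO 3 was at its floor. Its difference was -4.01 ± 0.79 with 12 libraries (adjusted p = 0.308, limma) and -4.14 ± 0.73 with 11 (adjusted p = 0.0266).

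The other 4 called genes have no established function that could be stated here. D330045A20Rik, a protein-coding gene on the X chromosome, ran from 44.3 to 76.5 RPM in Acly WT, 11.5 to 21.4 in Acly KO, 17.2 to 29.7 in Pdha1 WT and 55.5 to 92.2 in Pdha1 KO. The non-coding gene 9330159M07Rik ran from 39.8 to 76.5 RPM, 9.71 to 25.8, 22.8 to 41.9 and 82.3 to 118 RPM in the same order. Gm10863, another non-coding gene, was the exception in the Acly cohort, where WT (4.40 to 25.0 RPM) and KO (3.53 to 10.7 RPM) overlapped. Its Pdha1 groups were at 3.86 to 11.8 RPM and 45.4 to 82.9 RPM. Its value of 4.56 RPM in Pdha1 WT 1 lay under the floor of that library, 6.83 RPM. 6330419E04Rik lies inside Cntnap2 on the same strand, so reads could belong to either. It ran from 8.69 to 27.0, 0 to 4.28, 2.90 to 9.64 and 25.7 to 36.9 RPM, while Cntnap2 showed no such pattern, with 35.6 to 38.6 RPM in Pdha1 KO and 6.84, 33.9 and 41.9 RPM in WT. For 6330419E04Rik, Acly KO 2 was at 0 RPM, and Pdha1 WT 1 and 2 were at their floors of 6.83 and 2.90 RPM. With 11 libraries the differences of these 4 genes were -3.32 ± 0.48, -3.45 ± 0.51, -4.66 ± 0.74 and -5.56 ± 0.96.

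**Figure D2:**
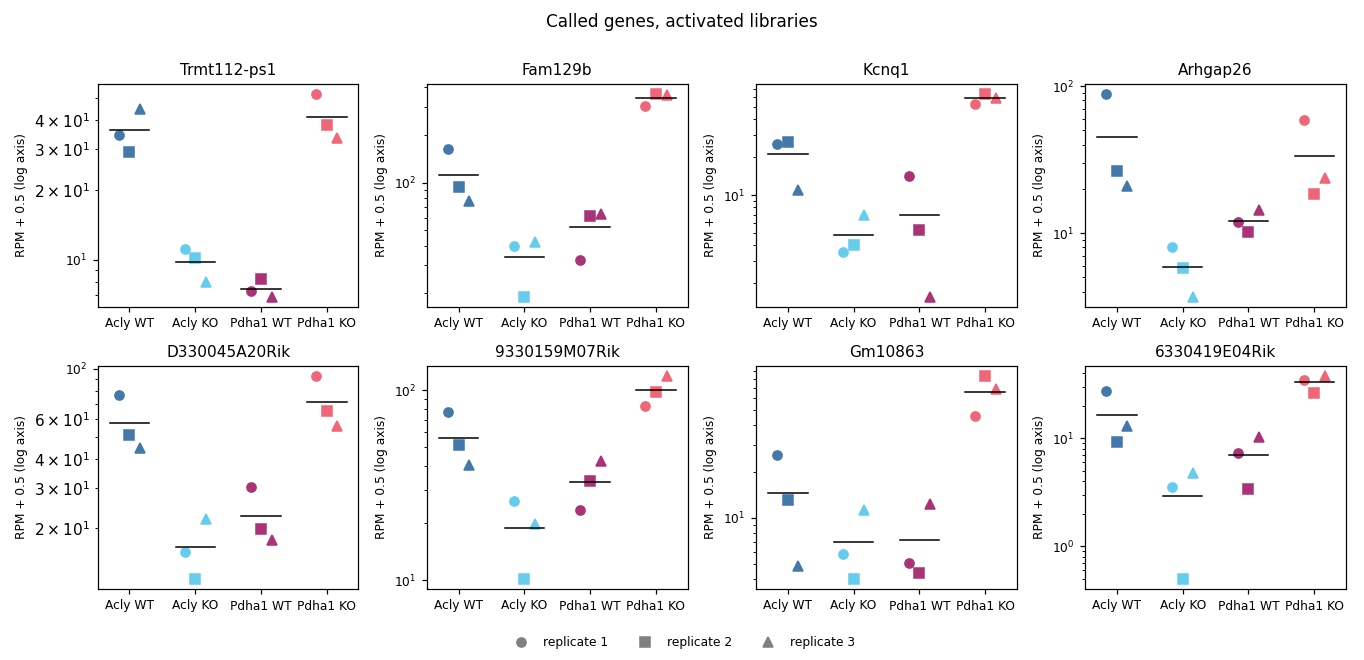
RPM + 0.5 (log axis) of the 8 called genes in the 12 activated libraries, 1 point per library with its replicate number as the symbol; bars are group means. In each panel the Pdha1 KO points lie above all Pdha1 WT points, and in each panel but that of Gm10863 the Acly KO points lie below all Acly WT points.

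Resting libraries took no part in the choice of these genes. At rest no gene of the 8 had Acly KO libraries wholly above or below WT, beside 3.25% and 3.57% of all 28144 genes. In the Pdha1 cohort, where KO includes the library labelled resting 3 with its activation list mean of 5.15, KO lay wholly above WT at rest for 0 of 8 and wholly below for 1 of 8, beside 3.88% and 3.27% of all genes. So few genes cannot be told from these shares. In resting Acly WT, Acly KO and Pdha1 WT, library 2 was the lowest in 7, 8 and 8 of the 8 genes. Among all genes of at least 5 RPM on average in a group, it was the lowest for 48.3%, 52.1% and 50%. Resting Pdha1 KO had no such order: library 1 was the lowest in 3 genes, library 2 in 4 and library 3 in 1, beside 17%, 27.4% and 55.6% of all genes. Fam129b shows the size of this spread, with 213, 79.5 and 574 RPM in resting Acly WT, and 324, 115 and 584 RPM in resting Acly KO. For Kcnq1 the same libraries gave 44.3, 4.23 and 77.9 RPM, and 85.3, 9.58 and 121 RPM. In resting Pdha1 KO Fam129b measured 46.5, 50.8 and 126 RPM, and Kcnq1 2.93, 1.69 and 12.9 RPM. What sets these orders was not tested.

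Among genes with names, Pgpep1, a peptidase that removes N-terminal pyroglutamate, had the next smallest p below 0 in both fits without passing. It measured 6.98, 13.4 and 7.05 RPM in Acly WT and 6.04, 4.41 and 2.14 RPM in Acly KO, and 2.28, 2.90 and 4.28 RPM in Pdha1 WT against 13.3, 16.3 and 22.4 RPM in Pdha1 KO. KO lay below WT in the Acly cohort and above it in the Pdha1 cohort, with no overlap in either. This is a description, since the gene was chosen by its p from the same values. Pdha1 WT 1 and Acly KO 3 lay under their floors of 6.83 and 3.21 RPM, and Pdha1 WT 2 was at its floor. The order thus rests partly on values too low to measure. The edgeR test with 11 libraries gave -3.56 with adjusted p = 0.00656. The difference was -3.36 ± 0.73 (adjusted p = 0.673, limma) with 12 libraries and -3.58 ± 0.73 (adjusted p = 0.145) with 11. Brinp3, a gene best known from neurons, had a difference of -5.77 ± 1.35 (adjusted p = 1.00, limma). It stood on 1.07 RPM or less in Acly KO and on 7.39, 20.6 and 66.9 RPM in Pdha1 KO. In Pdha1 WT it measured 0, 8.70 and 3.21 RPM, with WT 1 and 3 at or under their floors. The edgeR test with 11 libraries gave -5.41 with adjusted p = 7.45e-05.

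No gene above 0 passed limma in either fit. The smallest p above 0 with 12 libraries belonged to Klf2, a transcription factor that keeps T cells quiescent and drives their recirculation. It measured 4.99, 11.9 and 6.17 RPM in Acly WT and 31.1, 24.8 and 23.6 RPM in Acly KO. In the Pdha1 cohort the order was turned, with 27.4, 14.5 and 23.6 RPM in WT and 8.87, 10.3 and 13.6 RPM in KO. Neither pair overlapped. The difference was 2.75 ± 0.60 (adjusted p = 0.673, limma), or 2.67 ± 0.59 (adjusted p = 0.164) with 11 libraries, where edgeR gave 2.70 with adjusted p = 0.00245. Against WT 1, 2 and 3 alone the difference of Klf2 was 3.11, 2.22 and 2.90.

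Rgs2, which shortens signalling of G protein-coupled receptors, came next. It measured 8.98, 11.9 and 15.0 RPM in Acly WT and 35.7, 35.4 and 31.1 RPM in Acly KO, and 11.4, 8.70 and 7.50 RPM in Pdha1 WT against 6.65, 5.98 and 3.19 RPM in Pdha1 KO. The difference was 2.29 ± 0.59 (adjusted p = 1.00, limma), and edgeR with 11 libraries gave 2.47 with adjusted p = 0.0328. Tmem29 had a difference of 1.89 ± 0.57, with 8.81 to 11.9 RPM in Acly WT and 19.3 to 21.2 RPM in Acly KO, and 9.64 to 18.2 against 5.17 to 7.98 RPM in the Pdha1 cohort. Ctso, a lysosomal cysteine protease, had a difference of 1.72 ± 0.62, and the zinc finger gene Zfp943 one of 1.80 ± 0.68. In Klf2, Rgs2, Tmem29 and Zfp943 KO and WT did not overlap in either cohort, WT 3 included. Over all 28144 genes, Acly KO lay wholly above WT in 3.87% and Pdha1 KO wholly below WT in 1.80%. The genes were chosen by their p from these same values, so the arrangement is a description. In Ctso the Acly groups did not overlap (2.37 to 5.28 RPM in WT, 7.56 to 9.63 in KO), and the Pdha1 groups touched (15.96 RPM as the lowest WT, 15.99 as the highest KO). None of the 5 passed limma.

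The genes of smallest p above 0 with 11 libraries were of another kind. Psmg4, a proteasome assembly chaperone, measured 38.1 to 43.4 RPM in Acly WT and 46.1 to 51.8 RPM in Acly KO. In the Pdha1 cohort it measured 61.7, 32.0 and 1.07 RPM in WT and 14.1, 11.1 and 7.18 RPM in KO. Its difference was 2.30 ± 0.48 (adjusted p = 0.146, limma) with 11 libraries and 0.69 ± 1.29 with 12. Cd200 and Btla, surface proteins that restrain immune cells, had differences of 2.00 ± 0.42 and 1.93 ± 0.41 with 11 libraries, and 1.12 ± 0.83 and 0.66 ± 1.03 with 12. Sdr39u1 had 2.03 ± 0.46 and 0.85 ± 1.01. For each of these 4 genes Pdha1 WT 1 and 2 lay above the KO libraries and WT 3 below them, so the value depends on that library.

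**Figure D3:**
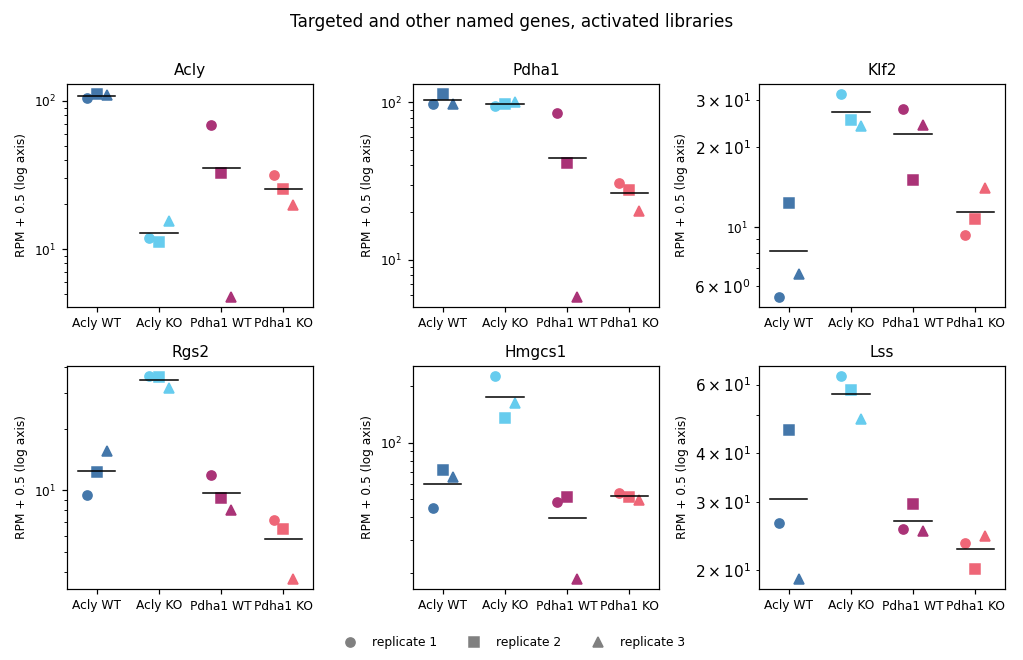
RPM + 0.5 (log axis) of Acly, Pdha1, Klf2, Rgs2, Hmgcs1 and Lss in the 12 activated libraries, with group means as bars. Acly KO points lie apart from Acly WT in the panels of Acly, Klf2, Rgs2, Hmgcs1 and Lss, while the Pdha1 WT points of Acly and Pdha1 spread over a wide range.

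The targeted genes show how far each deletion is visible. Acly (chromosome 11, 100476353 to 100528000) measured 104, 111 and 109 RPM in Acly WT and 11.3, 10.6 and 15.0 RPM in Acly KO. In the Pdha1 cohort Acly measured 68.6, 32.0 and 4.28 RPM in WT and 31.2, 24.9 and 19.2 RPM in KO. Its difference was -3.28 ± 0.94 (adjusted p = 1.00, limma) with 12 libraries and -2.18 ± 0.47 (adjusted p = 0.164) with 11, and did not pass although its own deletion is part of the contrast. The edgeR test with 11 libraries gave -2.07 with adjusted p = 0.0124.

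Pdha1 (X chromosome, 160122209 to 160138413) measured 97.8, 112 and 97.2 RPM in Acly WT and 94.3, 97.4 and 101 RPM in Acly KO. In its own cohort it measured 84.7, 40.8 and 5.35 RPM in WT and 30.4, 27.4 and 19.996 RPM in KO. The KO libraries lay under WT 1 and 2 and above WT 3. The difference was 0.00 ± 0.95 with 12 libraries and 1.12 ± 0.43 (adjusted p = 0.305, limma) with 11. Pdha1 transcripts remained in Pdha1 KO, and Acly spread over the same libraries in the same order. The deletion of Pdha1 is therefore not established by these values, and directions for the Pdha1 cohort refer to libraries as labelled.

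Around the lost step, 3 of the 13 genes of acetyl-CoA supply were above 0 with 12 libraries and 6 with 11, with medians of -0.46 and -0.03. None passed. At an unadjusted p under 0.05, 2 of 13 were below 0 with 12 libraries, Acly and the citrate carrier Slc25a1, beside 2.21% of all genes. With 11 libraries 1 was above 0 and 1 below, beside 5.8% and 8.28%. Slc25a1 measured 69.3 to 95.3 RPM in Acly WT, 49.7 to 74.9 in Acly KO, and 0, 33.9 and 3.21 RPM in Pdha1 WT against 18.4 to 33.4 RPM in Pdha1 KO. Its difference of -3.01 ± 1.38 (adjusted p = 1.00, limma) was 0.10 against Pdha1 WT 2 alone, and rests on WT 1 and 3, which lay at or under their floors. Citrate synthase (Cs), which makes citrate, had a difference of -0.27 ± 0.72 with 12 libraries and 0.31 ± 0.39 with 11.

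Of 15 genes of pyruvate dehydrogenase and pyruvate entry, 7 were above 0 with 12 libraries (median -0.16) and 9 with 11 (median 0.22), and none passed. The 5 complex subunits had a median difference of 0.12 with 12 libraries and 0.46 with 11, and the 7 kinases and phosphatases -0.41 and -0.15. Pdpr, a regulatory subunit of the phosphatase, had a difference of 1.87 ± 1.05 on values of at most 3.19 RPM in any activated library, near the floor. The pyruvate carrier gene Mpc2 had -1.40 ± 0.82, with 2.28 RPM in Pdha1 WT 1 and 11.3 to 24.0 RPM in the other 11 libraries.

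Cholesterol synthesis, which draws on cytosolic acetyl-CoA, had a median above that of all genes in both fits. With 11 libraries this did not set it apart, since most lists lay above all genes. Medians were then 0.89 for CCT chaperonin, 0.85 for nuclear oxidative phosphorylation and 0.80 for mitochondrial genome genes. Of the 20 cholesterol synthesis genes, 13 were above 0 with 12 libraries and 16 with 11. Their medians were 0.32 and 0.94, beside -0.33 for all genes. None passed limma. At an unadjusted p under 0.05, 1 and 9 of 20 were above 0, beside 0.576% and 5.8% of all genes. The median Acly effect was 0.66 and the median Pdha1 effect 0.37 with 12 libraries and -0.09 with 11. The mean of the list on the log2(RPM + 0.5) scale was 4.85, 4.96 and 4.78 in Acly WT and 5.66, 5.39 and 5.35 in Acly KO. It was 4.08, 3.90 and 2.41 in Pdha1 WT and 4.02, 3.87 and 3.76 in Pdha1 KO. The Acly groups did not overlap, and in the Pdha1 cohort WT 3 lay below the other 5 libraries, which overlapped. Against WT 1, 2 and 3 alone the median difference was 1.27, 0.54 and -0.54, beside -0.68, 0.00 and -0.09 for all genes, so with WT 3 alone the list lay below all genes. Without WT 1 its median was -0.01.

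Hmgcs1 makes HMG-CoA at the head of the mevalonate pathway and is a known target of the sterol-sensing factor SREBP2. It measured 44.1, 71.0 and 64.8 RPM in Acly WT and 226, 135 and 162 RPM in Acly KO, and 48.0, 50.5 and 18.2 RPM in Pdha1 WT against 53.6, 50.7 and 49.0 RPM in Pdha1 KO. Acly KO lay above every other library. The difference was 1.00 ± 0.65 (adjusted p = 1.00, limma) with 12 libraries and 1.47 ± 0.41 (adjusted p = 0.296) with 11. Lss, which closes the sterol rings, measured 26.0, 45.3 and 18.5 RPM in Acly WT and 62.5, 57.7 and 48.4 RPM in Acly KO. It measured 25.1, 29.1 and 24.7 RPM in Pdha1 WT and 23.0, 19.7 and 24.0 RPM in Pdha1 KO. Its difference was 1.22 ± 0.55 with 12 libraries and, against WT 1, 2 and 3 alone, 1.16, 1.37 and 1.14. Acat2, which joins acetyl-CoA units, measured 103 to 105 RPM in Acly WT and 154 to 175 RPM in Acly KO, and 80.1, 39.8 and 2.14 RPM in Pdha1 WT against 23.2 to 31.9 RPM in Pdha1 KO. With 11 libraries edgeR called Acat2 (1.94, adjusted p = 0.0187). Ndufa4 and Cox7b of oxidative phosphorylation and Cd44 of T cell activation, named below for their edgeR calls, were chosen after their values were seen. The same holds for Trmt112, Kcnq1ot1 and Cntnap2, named above beside called genes.

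The upstream sequence of Hmgcs1 is shown because Hmgcs1 is the member with the largest Acly effect of the 3 named by the rule. The sequence also holds letters that match a sterol regulatory element, by which SREBP factors are known to act. It is the RefSeq sequence of GRCm38.p6, plus strand, 250 bases up to the start of the gene (chr13:119690101-119690350), written 5′ to 3′ with the element letters in capitals.
Hmgcs1: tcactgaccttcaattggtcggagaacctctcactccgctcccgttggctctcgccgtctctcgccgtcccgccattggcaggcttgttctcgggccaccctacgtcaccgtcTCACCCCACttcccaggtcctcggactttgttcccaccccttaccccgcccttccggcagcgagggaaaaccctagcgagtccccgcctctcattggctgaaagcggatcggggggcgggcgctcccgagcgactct
The letters searched were TCACCCCAC on both strands, and no other motif was searched. They stand 137 bases before the start. Among 15 cholesterol genes with a RefSeq promoter entry, 1 held these letters in the 250 bases (6.67%), beside 150 of 27025 genes (0.555%). The match is a description and says nothing of binding.

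Genes of sterol sensing and transport lay near the background: 4 of 17 were above 0 with 12 libraries and 7 of 17 with 11, beside 32.9% and 38.6% of all genes, with medians of -0.31 and -0.22 beside -0.33. Fatty acid synthesis, the other main use of cytosolic acetyl-CoA, had 7 of 14 above 0 with 12 libraries and 7 of 13 with 11, with medians of -0.04 and 0.22. None of these genes passed.

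Genes of G2 phase and mitosis had the same direction under each Pdha1 control. Of 30 genes, 4 were above 0 with 12 libraries and 5 with 11, with medians of -0.65 and -0.67. The medians were -0.85, -0.45 and -0.84 against WT 1, 2 and 3 alone, beside -0.68, 0.00 and -0.09 for all genes, so against WT 1 the list lay close to all genes. At an unadjusted p under 0.05, 4 and 6 of 30 were below 0 and none above, beside 2.21% and 8.28% of all genes, and none passed limma or edgeR. The median Acly effect was -0.60 and the median Pdha1 effect 0.19 (0.05 with 11 libraries). The list mean was 4.39, 4.56 and 4.28 in Acly WT and 3.81, 3.58 and 3.87 in Acly KO, without overlap. It was 2.28, 3.04 and 2.55 in Pdha1 WT and 2.75, 2.75 and 2.89 in Pdha1 KO, with overlap. The Acly cohort thus stood higher than the Pdha1 cohort in all libraries. Resting libraries ran from 2.21 to 3.14, and all 6 activated Pdha1 libraries lay within that range. In 3 of the 30 members all 6 Pdha1 libraries lay at or under the floor. The Acly effect is the same under each Pdha1 control, so the shared direction says little of the Pdha1 effect.

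Ube2c, a ubiquitin-conjugating enzyme of the anaphase-promoting complex, measured 22.0, 17.4 and 20.3 RPM in Acly WT and 7.56, 4.41 and 5.35 RPM in Acly KO. In Pdha1 WT it measured 6.84, 6.76 and 5.35 RPM, with WT 1 at its floor. In Pdha1 KO it measured 11.8, 2.56 and 9.58 RPM, with KO 2 at its floor. Its difference was -1.82 ± 0.74 (adjusted p = 1.00, limma). Racgap1, needed for cytokinesis, measured 46.1, 38.1 and 33.6 RPM in Acly WT and 23.5, 21.2 and 20.4 RPM in Acly KO, and 11.6 to 13.7 against 15.4 to 18.4 RPM in the Pdha1 cohort. Its difference was -1.21 ± 0.49, and its groups did not overlap in either cohort. Racgap1 was chosen by its p from these same values, so this is a description. Top2a, a topoisomerase of dividing cells, had 277 to 350 RPM in Acly WT, 163 to 238 RPM in Acly KO, 24.7 to 41.1 RPM in Pdha1 WT and 28.3 to 31.2 RPM in Pdha1 KO, and a difference of -0.54 ± 0.58.

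Replication-dependent histone genes, which are used in S phase, were tested for 35 of 39 members. Of these, 7 were above 0 with 12 libraries and 9 with 11, with medians of -1.01 and -0.57. At an unadjusted p under 0.05, 4 and 5 were below 0, beside 2.21% and 8.28% of all genes, and none passed. In 21 of the 35 all 6 Pdha1 libraries lay at or under the floor of 3 counts, so the Pdha1 effect could not be measured in them, and they passed the filter through the Acly libraries. The list's counts and median therefore say little of a difference between the effects; its median Acly effect was -0.79. Quantile normalization brought the median difference from -1.01 to -0.31. Hist1h2ad measured 43.1, 36.5 and 21.2 RPM in Acly WT and 15.1, 8.82 and 17.1 RPM in Acly KO, and 0 RPM in all Pdha1 WT libraries. Hist1h3h measured 6.17 to 7.11 RPM in Acly WT and 0 to 2.27 RPM in Acly KO, and at most 0.854 RPM in the Pdha1 cohort. Hist1h2ao, the most abundant in reads, measured 351, 275 and 127 RPM in Acly WT and 157, 99.2 and 143 RPM in Acly KO, and 0 to 9.67 RPM in the Pdha1 cohort. Genes of G1 and S phase did not go with them: 18 of 41 were above 0 with 12 libraries and 29 with 11, with medians of -0.04 and 0.54.

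**Figure D4:**
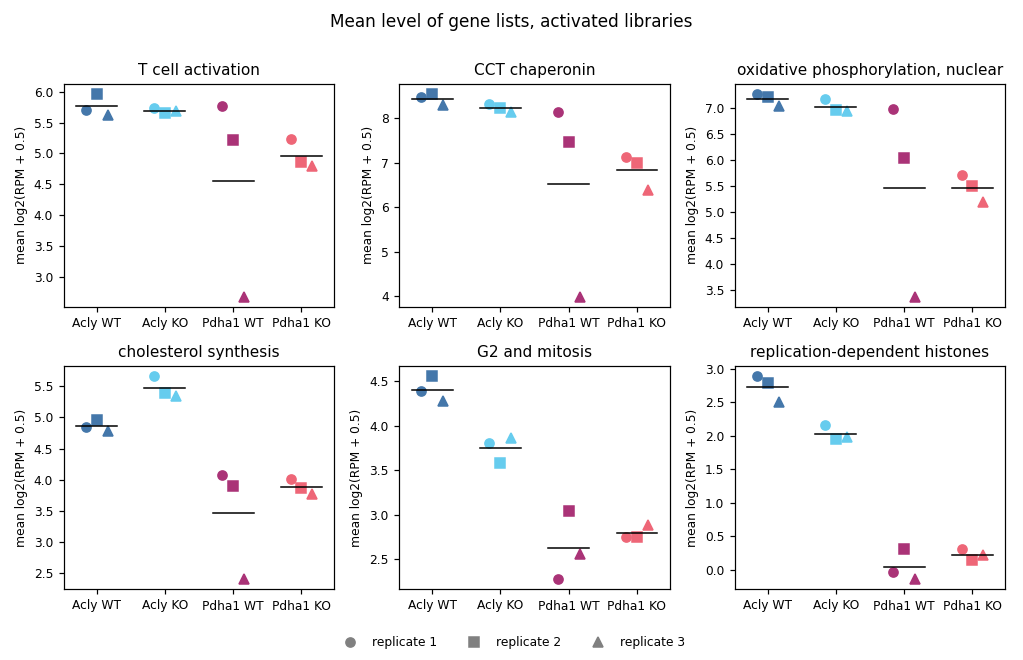
Mean log2(RPM + 0.5) over the tested members of 6 gene lists (y axes, not starting at 0) in the 12 activated libraries, with group means as bars. Acly KO lies apart from Acly WT for cholesterol synthesis, G2 and mitosis, and histones, and the library labelled Pdha1 WT activated 3 lies far below the other libraries of its group in the upper panels and for cholesterol synthesis.

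For the genes of growth and energy supply the direction of the difference turned with the library labelled Pdha1 WT activated 3. Nuclear genes of oxidative phosphorylation had 13 of 39 above 0 with 12 libraries and 38 of 39 with 11. Their median moved from -0.12 to 0.85. At an unadjusted p under 0.05, 14 of 39 were above 0 with 11 libraries, beside 5.8% of all genes, and 0 with 12. None passed limma, and edgeR called 8 of 39 above 0 with 11 libraries, Ndufa2, Ndufa4 and Cox7b among them, beside 1.11% of all genes. The median Acly effect was -0.13, and the median Pdha1 effect 0.00 with 12 libraries and -1.10 with 11. Against WT 1, 2 and 3 alone the median difference was 1.38, 0.49 and -2.22, where all genes had -0.68, 0.00 and -0.09.

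Ndufa2, a subunit of complex I, measured 70.4, 80.7 and 80.1 RPM in Acly WT and 100.5, 65.8 and 72.2 RPM in Acly KO. It measured 152, 27.1 and 7.50 RPM in Pdha1 WT and 17.0, 20.6 and 16.0 RPM in Pdha1 KO. The Pdha1 WT libraries thus lay on both sides of the KO libraries, and the difference was 0.85 ± 1.00 with 12 libraries and 1.85 ± 0.60 (adjusted p = 0.296, limma) with 11. Cycs, cytochrome c, measured 1569, 696 and 33.3 RPM in Pdha1 WT and 392, 420 and 273 RPM in Pdha1 KO, beside 837 to 1412 RPM in the Acly cohort. Its difference was -0.33 ± 1.37 with 12 libraries and 1.32 ± 0.48 with 11. The complex IV subunit Cox4i1 kept its sign, with -0.89 ± 0.71 and -0.28 ± 0.41. Transcripts of the mitochondrial genome had 8 of 13 above 0 with 12 libraries and 12 of 13 with 11, with medians of 0.00 and 0.80.

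The 8 subunits of the CCT chaperonin, which folds actin and tubulin, were all below 0 with 12 libraries (median -0.40) and all above 0 with 11 (median 0.89). Cct8 measured 913, 1107 and 781 RPM in Acly WT and 792, 962 and 718 RPM in Acly KO, and 434, 612 and 13.9 RPM in Pdha1 WT against 285, 342 and 202 RPM in Pdha1 KO. Its difference was -0.97 ± 1.39 with 12 libraries and 0.75 ± 0.43 with 11, and that of Cct7 -0.96 ± 1.01 and 0.16 ± 0.41. Ribosome biogenesis factors had 3 of 30 above 0 with 12 libraries and 23 of 30 with 11, with medians of -0.60 and 0.38. Npm1, an abundant nucleolar chaperone, measured 3472, 1641 and 106 RPM in Pdha1 WT and 720 to 1254 RPM in Pdha1 KO, and its difference went from -0.13 ± 1.34 to 1.36 ± 0.48. Wdr12, a factor of large ribosomal subunit assembly, did not turn. It measured 201, 163 and 136 RPM in Acly WT and 87.3, 80.2 and 106 RPM in Acly KO, and 119, 140 and 119 RPM in Pdha1 WT against 226, 158 and 199.8 RPM in Pdha1 KO. Its difference was -1.47 ± 0.62 (adjusted p = 1.00, limma) with 12 libraries and -1.44 ± 0.40 (adjusted p = 0.296) with 11. The polymerase I subunit Polr1b had -0.96 ± 0.57 and -1.06 ± 0.52.

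Glycolysis had 5 of 19 genes above 0 with 12 libraries and 13 of 19 with 11, with medians of -0.53 and 0.36. The members of smallest p kept their sign. Slc16a3, a lactate exporter, measured 19.0, 19.0 and 12.3 RPM in Acly WT and 3.02, 6.17 and 5.35 RPM in Acly KO, with 1.07 to 6.84 RPM in the Pdha1 cohort, at or near the floor. Its difference was -2.07 ± 0.86 (adjusted p = 1.00, limma) with 12 libraries and -1.46 ± 0.75 with 11. Hk2, which traps glucose in the cell, measured 28.0 to 31.8 RPM in Acly WT and 8.82 to 22.5 RPM in Acly KO, and 9.11 to 21.3 against 16.0 to 21.4 RPM in the Pdha1 cohort. Its difference was -1.31 ± 0.60 and -1.31 ± 0.57. Gapdh turned, from -0.58 ± 1.06 to 0.51 ± 0.42. Genes of the TCA cycle had 7 of 18 above 0 with 12 libraries and 16 with 11, with medians of -0.13 and 0.71.

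T cell activation genes turned in the same way, with 6 of 28 above 0 and a median of -0.51 with 12 libraries, and 23 of 28 and 0.47 with 11. The list mean was 5.62 to 5.96 in Acly WT and 5.65 to 5.74 in Acly KO, with overlap. It was 5.77, 5.21 and 2.68 in Pdha1 WT and 5.23, 4.86 and 4.79 in Pdha1 KO. Irf8, a transcription factor induced on activation, measured 350.4, 159 and 4.28 RPM in Pdha1 WT and 124, 92.6 and 76.6 RPM in Pdha1 KO, beside 343 to 479.6 RPM in the Acly cohort. Its difference was -0.69 ± 1.51 with 12 libraries and 1.18 ± 0.45 with 11. The immediate early gene Nr4a1 had -1.62 ± 0.94 and -0.46 ± 0.43, and the effector regulator Prdm1 -1.45 ± 1.09 and -2.25 ± 1.05 on at most 6.65 RPM. The adhesion receptor Cd44 was called by edgeR with 11 libraries (1.79, adjusted p = 0.0246). Cytokine and effector genes had 3 of 17 above 0 with 12 libraries and 13 of 17 with 11, with medians of -0.72 and 0.50.

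Genes of the naive and quiescent state had 16 of 25 above 0 with 12 libraries and 19 with 11, with medians of 0.08 and 0.25. Klf2, given above, was the member of smallest p. The lymph node egress receptor S1pr1, a gene that Klf2 is known to switch on, had 4.74 to 7.93 RPM in Acly WT and 7.49 to 9.71 RPM in Acly KO, and 8.70 to 19.3 against 2.56 to 12.8 RPM in the Pdha1 cohort. Its difference was 1.26 ± 0.78 with 12 libraries and 0.90 ± 0.76 with 11. Bcl2, which protects from apoptosis, had 0.31 ± 0.83 and 1.05 ± 0.42. T cell identity genes had 2 of 16 above 0 with 12 libraries and 13 with 11, with medians of -0.53 and 0.27. Thy1, a surface glycoprotein of T cells, measured 472, 415 and 331 RPM in Acly WT and 179, 157 and 161 RPM in Acly KO, and 254, 149 and 58.2 RPM in Pdha1 WT against 178, 143 and 106 RPM in Pdha1 KO. Its difference was -1.37 ± 0.77 (adjusted p = 1.00, limma) and -0.80 ± 0.43. The kinase Zap70 had -1.60 ± 1.37 and 0.13 ± 0.42, and Ptprc (CD45) -0.31 ± 1.00 and 0.69 ± 0.44.

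**Figure D5:**
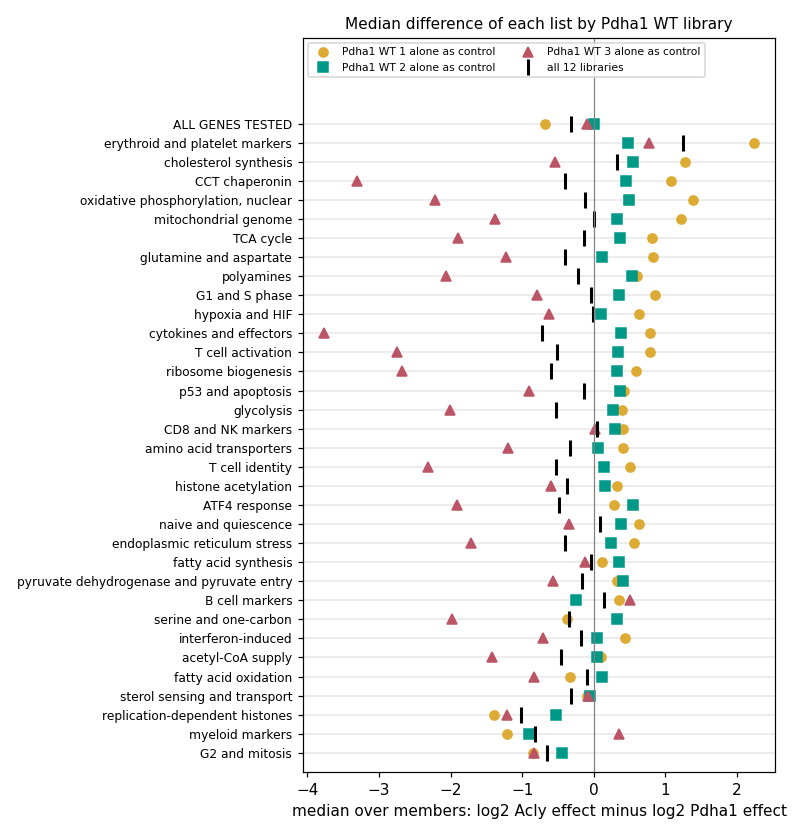
Median difference over the tested members of each of 33 gene lists (x axis, log2 units) with Pdha1 WT 1, 2 or 3 alone as the Pdha1 control and with all 12 libraries; the top line gives all genes tested. The 3 controls lie on the same side of 0 for G2 and mitosis, histones, sterol sensing and transport (below 0), and for CD8 and NK and erythroid and platelet genes (above 0), while CCT chaperonin genes run from -3.31 with WT 3 to 1.07 with WT 1.

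From 12 to 11 libraries the difference of the receptor background fell, while those of oxidative phosphorylation, CCT chaperonin and T cell activation genes rose. The log2 sum of the background had an Acly effect of 0.00 and a Pdha1 effect of 0.49 with 12 libraries and 0.91 with 11. Its difference was -0.48 and -0.91, and its part in the lists' values was not tested. With the background as a covariate the 12-library medians of oxidative phosphorylation, CCT chaperonin and T cell activation genes were -0.90, -1.46 and -1.27. The edgeR fit of the same 12 libraries gave 0.51, 0.46 and 0.02. The direction of these lists is thus not settled by the 12 libraries. With the covariate the median of cholesterol synthesis was 0.00.

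The remaining lists held no gene that passed limma. Medians below 0 with 12 libraries and above 0 with 11 were found for glutamine and aspartate metabolism (-0.40, 0.62), amino acid transporters (-0.34, 0.33), serine and one-carbon metabolism (-0.35, 0.08), polyamines (-0.23, 0.59) and endoplasmic reticulum stress (-0.40, 0.24). The same held for the ATF4 response (-0.48, 0.26), hypoxia (-0.01, 0.54), p53 and apoptosis (-0.14, 0.37) and histone acetylation (-0.38, 0.26). Interferon-induced genes went from -0.18 to 0.00 and fatty acid oxidation from -0.10 to -0.04. The median of all genes was -0.33 in both fits and moved with the setting, as given above.

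Summed markers of red cells and platelets and of B cells did not overlap between the cohorts, while those of CD8, NK and myeloid cells overlapped. The 6 erythroid and platelet markers summed to 14.1 to 329 RPM in the activated Acly libraries, to 17538, 3793 and 3675 RPM in Pdha1 WT and to 2887 to 4012 RPM in Pdha1 KO. Haemoglobin gene Hba-a1 measured 10354, 2695 and 2699 RPM in Pdha1 WT and 2174 to 2852 RPM in Pdha1 KO, and 7.94 to 239 RPM in the Acly cohort. Hbb-bs had a difference of 2.18 ± 1.26 and the platelet integrin Itga2b one of 1.70 ± 0.77 (adjusted p = 1.00 for both, limma). In the list of erythroid and platelet genes, 6 of 8 were above 0 in both fits, with medians of 1.25 and 1.49. In 3 of these 8 all 6 activated Acly libraries lay at or under the floor, so their Acly effect could not be measured. Without Acly KO 3, which held 329 RPM of the 6 summed markers beside 14.1 to 53.1 RPM in the other 5 activated Acly libraries, the median over the remaining libraries was 0.17, and without Pdha1 WT 1 it was 0.55. The platelet factor Pf4 was at 0 in 10 of the 12 libraries. B cell markers summed to 3.95 to 20.3 RPM in the Acly cohort and 22.8 to 38.3 RPM in the Pdha1 cohort, CD8 markers to 4.40 to 17.1 and 14.5 to 27.4 RPM, NK cell markers to 0.755 to 3.21 and 0.738 to 6.83 RPM, and myeloid markers to 10.6 to 32.1 and 13.7 to 81.6 RPM. Myeloid genes had 1 of 6 above 0 with 12 libraries and 0 of 5 with 11, B cell genes 8 of 13 and 7 of 12, and CD8 and NK genes 6 of 9 and 7 of 8. All 6 activated Acly libraries lay at or under the floor in 3 of the 6 myeloid genes. The same held for 2 of the 13 B cell genes and 2 of the 9 CD8 and NK genes. The part of all these markers in the differences above was not tested.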

How the data were processed

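RNA was sequenced from 24 libraries of mouse CD4 T cells, and 12 activated libraries are compared here. The authors deposited RPM, reads scaled to 1000000 per library, and per the submitters' processing notes used the builds GRCm38 and mm10. No aligner, counter or annotation is given in the sources used here. Libraries came from total RNA by a stranded kit, read over 75 bp, per the labels' protocols. All deposited RPM values gave whole counts, within 0.01, after undoing the scaling and a collision correction for 4096 identifiers of 6 bases. The labelled kit names no such identifiers, and a gene cannot exceed 4095 counts in a library. Symbols came from GENCODE M21 (46206 of 46981 identifiers matched).

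Log2(RPM + 0.5) was fitted with limma 3.58.1 (R 4.3.3; trend, robust) in 4 groups, for genes with at least 1 RPM in 3 libraries. The contrast is two-sided, with Benjamini-Hochberg adjustment over all genes at 0.05; the pseudocount understates changes of low genes. Values after ± are standard errors. Replicates may be technical, and p-values then cover only the spread among these libraries. edgeR 4.0.16 and DESeq2 1.42.0 on recovered counts, other pseudocounts, filters and scalings, a covariate, library weights and leaving out each library were alternatives. Setting each Pdha1 WT library alone as the control was chosen after seeing the data. The statistics were tested on simulated data.

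The members, the 33 gene lists (613 symbols, 610 in the table) and the tests were chosen with earlier results of these data known. Genes named are Acly and Pdha1, in each fit the 10 largest called differences in each direction reaching 10 RPM without predicted models and pseudogenes (or the 5 of smallest p where fewer than 5 passed), and, in lists described gene by gene, the 2 members of smallest p with 12 libraries and the 1 of highest mean RPM. Other names were chosen after their values were seen and are given as such.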

Additional observations from a re-analysis of the deposited data

Results flagged for a closer look

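For each gene called, the knockout effect differed between the cohorts by a test of the difference itself. With 12 libraries this holds for Trmt112-ps1 (-4.31). With 11 libraries it holds for Kcnq1 (-4.84), Fam129b (-4.65), Arhgap26 (-4.14), D330045A20Rik (-3.32), Gm10863 (-4.66), 9330159M07Rik (-3.45), Trmt112-ps1 (-4.26) and 6330419E04Rik (-5.56), all on the log2 scale. Trmt112-ps1 is a pseudogene and 6330419E04Rik overlaps Cntnap2 on the same strand. Groups of 3 libraries were not searched for outlying samples.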

How the results depend on the processing

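With 12 libraries, the 1 call became 3 with pseudocount 1, 8 with no filter on low values, 6 with the receptor covariate, 8 with edgeR and 9 with DESeq2. It became 0 with resting libraries in the fit and 0 for limma without trend and robust, where unadjusted counts were 1141 and 999 genes. Library quality weights gave 580, from a fit whose weights did not converge. In that fit Pdha1 WT 2 had a weight of 91.3 and Pdha1 WT 1 and 3 had 0.10 each. Pdha1 WT 2 thus stood almost alone as the Pdha1 control there. Leaving out 1 library gave 0 to 8. With 11 libraries, the 8 calls became 238 with no filter, 342 with edgeR, 483 with DESeq2 (2 of the 8 called, 6 with no adjusted p), and 0 with resting libraries and 0 without trend and robust (unadjusted 3117 and 2856). With Pdha1 WT 1 or Pdha1 WT 2 as the only Pdha1 WT library edgeR called 2881 or 30. Leaving out 1 library gave 5 to 6065, the latter without Pdha1 WT 2, when WT 1 alone is assumed to vary like the other groups; the remaining counts were 5 to 10. The replicate block gave 1 and 10 calls. Deviations of same-numbered KO and WT libraries from their group means correlated at 0.06, 0.06 and 0.16 in the Acly cohort. In the Pdha1 cohort they correlated at 0.33, 0.10 and 0.47. Differently numbered libraries lay at -0.13 to 0.07 in the Acly cohort and at -0.40 to 0.12 in the Pdha1 cohort. Whether same-numbered libraries belong together is not given in the labels and was not tested. Of 62 genes named, 40 kept their sign in all settings of the 12-library fit. The sign turned with DESeq2 for Trmt112 (1.41), Cs (0.051), Gapdh (0.12), Cycs (1.07), Npm1 (1.10), Cct8 (0.33), Irf8 (0.93), Ptprc (0.51) and Ndufa4 (1.38). It turned with edgeR for Trmt112 (1.31), Gapdh (0.058), Cycs (1.00), Npm1 (1.02), Cct8 (0.28), Irf8 (0.85), Ptprc (0.43) and Ndufa4 (1.29). It turned with library weights for Trmt112 (0.77), Cntnap2 (0.033), Slc25a1 (0.036), Cs (0.13), Gapdh (0.54), Cycs (0.66), Npm1 (0.74), Cct7 (0.18), Cct8 (0.93), Irf8 (0.57), Zap70 (0.18), Ptprc (0.12) and Ndufa4 (0.84). It turned with the covariate for Pdha1 (-0.76), Psmg4 (-0.32), Btla (-0.12), Kcnq1ot1 (0.00892), Cntnap2 (0.066), Acat2 (-0.68), Ndufa2 (-0.065), Bcl2 (-0.20) and Cox7b (-0.41). It turned for Pdha1 with pseudocount 0.1 (-0.017). On leaving out 1 library the ranges of those that turned were -0.82 to 1.12 for Pdha1, -0.35 to 2.30 for Psmg4, -0.13 to 1.93 for Btla, -0.96 to 0.12 for Kcnq1ot1, -1.33 to 1.52 for Trmt112, -1.13 to 0.17 for Cntnap2, -0.62 to 0.31 for Cs, -0.72 to 1.75 for Acat2, -1.18 to 0.51 for Gapdh, -0.27 to 1.85 for Ndufa2, -1.45 to 1.32 for Cycs, -1.15 to 1.36 for Npm1, -1.56 to 0.16 for Cct7, -1.95 to 0.75 for Cct8, -1.92 to 1.18 for Irf8, -0.18 to 1.05 for Bcl2, -2.52 to 0.13 for Zap70, -1.08 to 0.69 for Ptprc, -0.11 to 2.30 for Hba-a1, -1.29 to 1.54 for Ndufa4 and -0.51 to 1.35 for Cox7b. Of 33 lists, G2 and mitosis, histones, and erythroid and platelet markers kept the sign of their median in all settings. For histones this says nothing of the Pdha1 effect, which lay under the floor in 21 of 35 members. For G2 and mitosis it says little of that effect, since the activated Pdha1 libraries lay within the resting range. In 3 of the 8 erythroid and platelet members all 6 activated Acly libraries lay at or under the floor. The Acly effect could not be measured in those members. The causes were not tested. Depth limits genes near the floors of 2.21 to 6.83 RPM.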
